A study of Mus musculus with 12 samples.

Results

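A set of 10 genes that mark macrophages or encode complement C1q were read in mouse skin: C1qa, C1qb, C1qc, Lyz2, Cd68, Trem2, Cd14, Csf1r, Mrc1 and Cd163. They were picked by name, with earlier results of these data known, and are 10 of the 23359 genes of the deposited expression table. All 10 passed the filter on low values, at least 1 FPKM in at least 3 libraries, which 13761 genes passed. FPKM is the number of sequenced fragments scaled to transcript length and to the library, so levels of different genes can be set side by side per length.

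The skin came from C3H/HeJ mice in 4 groups of 3 libraries. These were normal skin, 6-week fibrotic skin, 20-week fibrotic skin, and a 20-week group treated with CD36highCD90+ fibroblasts (called treated skin below). CD90 is a surface protein of fibroblasts, and CD36 takes up fatty acids. How fibrosis was made, when normal skin was taken, who gave the fibroblasts, whether untreated fibrotic skin received a mock injection and whether libraries came from separate animals were not stated in the labels. The p-values therefore measure the spread between these samples, which may be technical. C3H/HeJ mice carry a mutation that disables Tlr4, the receptor for bacterial endotoxin, in all groups alike.

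Macrophages are phagocytes that live in every tissue and are joined by blood monocytes after injury. They live on signals through the receptor CSF1R, take up dead cells and debris, digest them in lysosomes and release factors that act on fibroblasts. C1q is the recognition part of the first complement component and is assembled from 3 chains, the products of C1qa, C1qb and C1qc. Unlike most complement proteins, which the liver makes, C1q comes mainly from macrophages and dendritic cells. It binds antibody complexes and dying cells, and starts the classical pathway through the proteases C1r and C1s.

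The 3 C1q genes lie side by side on the minus strand of chromosome 4, at chr4:136880126-136898844 of GRCm38.p6 (mm10), a stretch of 18719 bases. RefSeq promoter sequences, 250 bases before the start site, were at hand for 7 of the 10 genes. Some are shown, because they share short motifs. The 7 letters AGGAAGT, a core that ETS factors of the PU.1 type bind, occur on one strand or the other before the start of C1qb, C1qc, Lyz2 and Mrc1. The letters TGANTCA, a loosened form of the AP-1 core with any base at N, occur before Cd68 in 2 places and before Trem2. Both Cd68 copies read TGAGTCA. The Trem2 copy reads TGAATCA and matches only through the open N. In the lines that follow, bases run 5′ to 3′ on the gene's strand, and capitals mark these matches. A stretch that a RefSeq or GENCODE model of the gene covers was searched but is not printed, so some lines stop short of the start site.
C1qb, chr4:136886201-136886450, minus strand: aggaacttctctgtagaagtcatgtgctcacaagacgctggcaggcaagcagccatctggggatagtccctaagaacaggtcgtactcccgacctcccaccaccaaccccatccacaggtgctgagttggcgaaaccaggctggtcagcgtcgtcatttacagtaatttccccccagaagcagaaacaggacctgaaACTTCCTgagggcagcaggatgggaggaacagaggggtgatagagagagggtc
C1qc, chr4:136893066-136893164, minus strand: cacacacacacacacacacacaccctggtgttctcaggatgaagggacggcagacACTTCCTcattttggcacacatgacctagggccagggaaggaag
Lyz2, chr10:117282322-117282522, minus strand: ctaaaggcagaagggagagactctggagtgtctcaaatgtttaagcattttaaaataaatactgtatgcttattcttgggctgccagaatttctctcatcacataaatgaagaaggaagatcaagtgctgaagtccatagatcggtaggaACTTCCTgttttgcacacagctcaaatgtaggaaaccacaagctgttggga
Cd68, chr11:69666171-69666420, minus strand: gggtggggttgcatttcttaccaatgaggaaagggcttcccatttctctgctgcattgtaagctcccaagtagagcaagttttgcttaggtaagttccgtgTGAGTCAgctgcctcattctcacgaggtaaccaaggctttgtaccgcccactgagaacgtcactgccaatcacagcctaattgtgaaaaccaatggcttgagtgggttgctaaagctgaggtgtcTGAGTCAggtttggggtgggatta
Trem2, chr17:48346151-48346400, plus strand: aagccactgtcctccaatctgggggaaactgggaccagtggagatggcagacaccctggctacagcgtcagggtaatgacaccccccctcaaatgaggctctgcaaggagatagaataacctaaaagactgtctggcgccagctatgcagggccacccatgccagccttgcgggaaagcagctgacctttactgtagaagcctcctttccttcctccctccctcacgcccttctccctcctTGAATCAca
The AGGAAGT matches lay 53 to 47 bases before the start of C1qb, 195 to 189 before C1qc, 100 to 94 before Lyz2 and 211 to 205 before Mrc1. The shown copies read ACTTCCT, the same letters on the opposite strand. The TGANTCA matches lay 149 to 143 and 24 to 18 bases before the start of Cd68, and 9 to 3 before Trem2. Of 32851 mouse promoter windows of the same length, 7.69% held AGGAAGT and 6.75% held TGANTCA on either strand. The MAF half-site TGCTGAC (3.81% of windows) and the E-box CACGTG (6.02%) were searched too and occurred in none of the 7. The motifs were chosen after the sequences were seen. A match is a run of letters, not a measured binding site.

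Between 12658 and 13364 genes reached 1 FPKM in a library. The read depth behind each value is unknown. The epidermal keratins Krt5 and Krt14 ran from 2279 to 3501 and from 872 to 5281 FPKM over the libraries, high in every one. The make-up of the tissue differed between libraries: the summed FPKM of 20 skeletal muscle genes ran from 102 to 9741 and of 29 hair shaft genes from 86.4 to 12171. Rescaling all libraries to equal totals without muscle, hair shaft and cornified genes moved the median log2 difference over all tested genes from -0.051 to -0.36 for 6-week and from -0.036 to -0.33 for 20-week against normal skin. For treated against fibrotic skin it moved that median from -0.0044 to 0.24. The 6-week split of 2427 genes called higher and 2982 lower became 1265 and 5989, and the 20-week split of 2102 and 2503 became 1086 and 5432. For treated against fibrotic skin, 612 higher and 1496 lower became 2330 and 703. Values here are unscaled beyond FPKM unless said otherwise.

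Differences are given on the log2(FPKM + 1) scale, from a limma fit of all 12 libraries, and a gene is called at a Benjamini-Hochberg adjusted p under 0.05 over all genes tested. In fibrotic skin at 6 weeks, 9 of the 10 genes rose against normal skin and none fell. Over all genes tested in that comparison, 17.6% rose and 21.7% fell. At 20 weeks, 6 of the 10 rose against normal skin and Cd163 fell, beside 15.3% of all tested genes that rose and 18.2% that fell. In treated against fibrotic skin of 20 weeks, Trem2 fell and no other member passed the test, beside 10.9% of tested genes that fell and 4.45% that rose. In treated against normal skin, Trem2 and the 3 C1q genes were higher, beside 7.57% of tested genes that were higher and 13.2% that were lower. The median log2 difference of the 10 genes against normal skin was 1.72 at 6 weeks and 1.27 at 20 weeks, where all tested genes had medians of -0.051 and -0.036. It was -0.22 for treated against fibrotic skin and 0.71 for treated against normal skin. Comparisons that share a group share its 3 libraries, so these counts are not independent of each other. In whole skin, more cells of a type and more RNA per cell cannot be told apart.

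**Figure D1:**
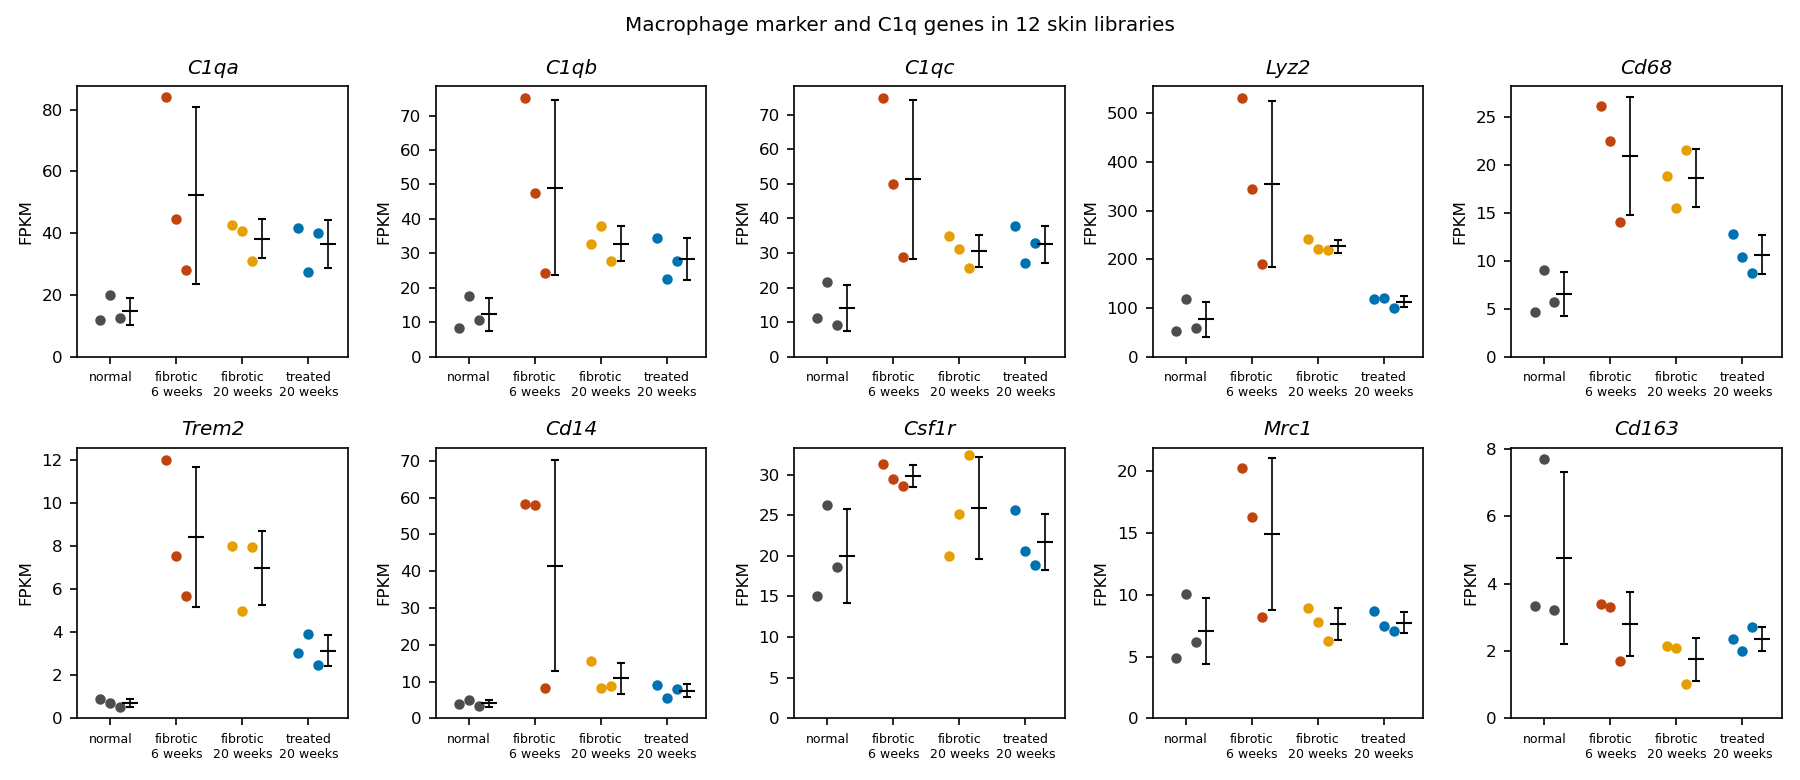
FPKM of the 10 genes (linear y axes from 0, each panel with its own range) in the 4 groups. Points are libraries, and the bar beside them is the mean ± SD (n = 3). Among the 6-week libraries, library 1 is highest and library 3 lowest in all 10 genes.

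C1qa, which encodes the A chain of C1q, stood at 11.8, 19.9 and 12.5 FPKM in normal skin. It reached 84.0, 44.6 and 28.1 FPKM in fibrotic skin at 6 weeks, 42.8, 40.8 and 31.2 FPKM at 20 weeks and 41.8, 27.5 and 40.1 FPKM in treated skin. Every fibrotic and treated library was above every normal library, and the treated libraries overlapped the fibrotic ones of 20 weeks. C1qb, the B chain, stood at 8.41, 17.6 and 10.8 FPKM in normal skin, 75.2, 47.6 and 24.4 at 6 weeks, 32.6, 38.0 and 27.8 at 20 weeks and 34.6, 22.6 and 27.9 in treated skin. C1qc, the C chain, stood at 11.3, 21.6 and 9.28, 74.9, 50.0 and 28.9, 34.9, 31.1 and 25.7 and 37.8, 27.0 and 32.8 FPKM in the same order. In all 3 genes no fibrotic or treated library overlapped the normal ones, and treated and 20-week fibrotic skin overlapped.

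At 6 weeks the log2 difference from normal skin was 1.66 ± 0.35 (SE, adjusted p = 0.0054) for C1qa, 1.84 ± 0.37 (SE, adjusted p = 0.00429) for C1qb and 1.78 ± 0.35 (SE, adjusted p = 0.00381) for C1qc. At 20 weeks it was 1.34 ± 0.35 (SE, adjusted p = 0.0161), 1.40 ± 0.37 (SE, adjusted p = 0.0172) and 1.15 ± 0.35 (SE, adjusted p = 0.0304). The 6-week calls held in all 14 alternative analyses. Those of 20 weeks were lost in several fits with 1 library left out: without normal library 1 the adjusted p was 0.0571 for C1qa, 0.0638 for C1qb and 0.0917 for C1qc, and without normal library 3 it was 0.0544, 0.0534 and 0.106. Without 20-week library 1 it was 0.0551 for C1qa and 0.0934 for C1qc, and without library 2 it was 0.0568 for C1qb and 0.0754 for C1qc. After rescaling C1qc was at 0.83 (0.0748). The sum of the 3 chains was 41.0 ± 15.6 FPKM in normal skin, 152.5 ± 76.8 at 6 weeks, 102 ± 14.7 at 20 weeks and 97.4 ± 18.8 in treated skin (SD, n = 3 each).

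The 3 chains kept nearly equal parts of that sum. Over the 12 libraries C1qa made up 31.3% to 39.8%, C1qb 26.7% to 34.5% and C1qc 28.3% to 36.5% of it, while the sum itself ran from 31.5 to 234 FPKM. The part of C1qa was 31.3% to 35.9% at 6 weeks and 36.8% to 38.8% at 20 weeks, without overlap. That of C1qc was 28.3% to 31.7% at 20 weeks, below the 6-week range of 32.0% to 35.5% and the treated range of 32.5% to 35.0%. The normal range overlapped each of the others for all 3 chains. The mature protein holds equal numbers of the 3 chains.

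Lyz2 encodes lysozyme M, a bacterial wall-splitting enzyme of macrophages and neutrophils, and had the highest level of the 10 genes. It stood at 52.7, 119 and 59.2 FPKM in normal skin, 532, 344 and 191 at 6 weeks, 241, 221 and 218 at 20 weeks and 119, 120.0 and 100.2 in treated skin. Both fibrotic groups were above all normal libraries. The treated libraries lay below all fibrotic ones, and library 3 of them lay within the normal range. The log2 difference from normal skin was 2.17 ± 0.36 (SE, adjusted p = 0.00171) at 6 weeks and 1.64 ± 0.36 (SE, adjusted p = 0.00787) at 20 weeks, and both calls held in all 14 alternatives. Treated against fibrotic skin it was -1.0 ± 0.36 (SE, adjusted p = 0.0837), which is not called. The near-identical neighbour Lyz1 was listed at 5.99% to 21.1% of the Lyz2 level, and how reads were split between both is uncertain.

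Cd68 encodes macrosialin, a glycoprotein of the macrophage lysosome. It stood at 4.70, 9.10 and 5.76 FPKM in normal skin, 26.1, 22.6 and 14.1 at 6 weeks, 18.9, 15.5 and 21.6 at 20 weeks and 12.8, 10.4 and 8.77 in treated skin. The fibrotic libraries of both times were above all normal and all treated ones, and the treated range overlapped the normal range through normal library 2. The log2 difference from normal skin was 1.54 ± 0.26 (SE, adjusted p = 0.00181) at 6 weeks and 1.42 ± 0.26 (SE, adjusted p = 0.0036) at 20 weeks, both called in all 14 alternatives. Treated against fibrotic skin it was -0.76 ± 0.26 (SE, adjusted p = 0.0728). It is not called, although without treated library 1 it was -0.89 with an adjusted p of 0.0355.

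Trem2 encodes a lipid-sensing receptor of macrophages and microglia that signals through the adaptor TYROBP. Of the 10 genes it was the lowest in normal skin, at 0.889, 0.718 and 0.525 FPKM. It stood at 12, 7.55 and 5.68 FPKM at 6 weeks, 8.01, 4.99 and 7.97 at 20 weeks and 3.04, 3.91 and 2.48 in treated skin. The means were 0.711 ± 0.183 FPKM, 8.42 ± 3.26 FPKM, 6.99 ± 1.73 FPKM and 3.14 ± 0.722 FPKM (SD, n = 3 each), and the log2(FPKM + 1) scale understates differences from so low a level. No library of normal skin overlapped any other group, and the treated libraries lay between the normal and the fibrotic ones without overlap with either. The log2 difference from normal skin was 2.41 ± 0.25 (SE, adjusted p = 0.000209) at 6 weeks, 2.2 ± 0.25 (SE, adjusted p = 0.000552) at 20 weeks and 1.27 ± 0.25 (SE, adjusted p = 0.00943) in treated skin, each called in all 13 alternatives in which the gene was tested. Between treated and fibrotic skin it was -0.94 ± 0.25 (SE, adjusted p = 0.0342). That fall was called in 6 of 13 alternatives. It was lost without 20-week library 1 (-0.84, adjusted p = 0.111) or 3 (-0.84, 0.11), without treated library 2 (-1.07, 0.0589) or 3 (-0.82, 0.124), in a fit of the 6 libraries alone (0.128), without the filter on low values (0.0553) and after rescaling (-0.70, 0.0694).

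Cd14 encodes the surface protein that hands bacterial endotoxin to TLR4, and is made by monocytes, macrophages and, at lower levels, neutrophils. It stood at 3.78, 5.05 and 3.33 FPKM in normal skin and 58.2, 58.0 and 8.35 FPKM at 6 weeks, where libraries 1 and 2 were far above library 3. It stood at 15.7, 8.26 and 8.75 FPKM at 20 weeks and 9.01, 5.60 and 8.06 in treated skin, above all normal libraries in each case. The log2 difference from normal skin was 2.68 ± 0.60 (SE, adjusted p = 0.00706) at 6 weeks, called in all 14 alternatives, and 1.20 ± 0.60 (SE, adjusted p = 0.146) at 20 weeks, which is not called. The standard error is the largest of the 10 genes. A fit of only the normal and 20-week libraries gave the latter an adjusted p of 0.0125.

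Csf1r encodes the receptor for the macrophage growth factors CSF1 and IL-34. Its 6-week difference was the smallest of the 9 genes that rose then. It stood at 15, 26.3 and 18.7 FPKM in normal skin, 31.3, 29.5 and 28.6 at 6 weeks, 20.0, 25.2 and 32.4 at 20 weeks and 25.6, 20.6 and 18.9 in treated skin. The 6-week libraries were all above the normal ones, and the later groups overlapped them. The 6-week log2 difference was 0.59 ± 0.21 (SE, adjusted p = 0.0488), and with the replicate number as a block, which the deviations of same-numbered libraries in this comparison allow, its adjusted p was 0.0715. The call was made in 5 of 14 alternatives: it was lost without any single library other than normal library 2 (adjusted p from 0.0838 to 0.175), and after rescaling the difference was 0.24. At 20 weeks the difference from normal skin was 0.36 (95% interval -0.11 to 0.83, adjusted p = 0.205).

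Mrc1 encodes the mannose receptor CD206, and Cd163 the scavenger receptor for haemoglobin bound to haptoglobin, and both are used as markers of resident and alternatively activated macrophages. Mrc1 stood at 4.92, 10.1 and 6.20 FPKM in normal skin, 20.3, 16.3 and 8.18 at 6 weeks, 8.91, 7.77 and 6.29 at 20 weeks and 8.68, 7.47 and 7.09 in treated skin. Libraries 1 and 2 of 6 weeks were above all others, and library 3 lay within the normal range. The 6-week log2 difference was 0.95 ± 0.30 (SE, adjusted p = 0.0317) and was called in 8 of 14 alternatives. Its adjusted p was 0.115 without normal library 1, 0.083 without normal library 3, 0.113 without 6-week library 1 and 0.104 without 6-week library 2. The call was also lost after rescaling (0.62, adjusted p = 0.0989) and in a fit of the 6 libraries alone (0.0758). At 20 weeks the difference was 0.14 (95% interval -0.53 to 0.82, adjusted p = 0.747).

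Cd163 ran the other way. It stood at 3.33, 7.71 and 3.23 FPKM in normal skin, 3.39, 3.31 and 1.7 at 6 weeks, 2.15, 2.09 and 1.01 at 20 weeks and 2.36, 2.00 and 2.71 in treated skin. Normal library 2 was the highest, and at 20 weeks and in treated skin all libraries were below all normal ones. The log2 difference from normal skin was -0.55 (95% interval -1.22 to 0.13, adjusted p = 0.174) at 6 weeks, which is not called but was -0.83 with an adjusted p of 0.0442 after rescaling, and -1.01 ± 0.30 (SE, adjusted p = 0.0289) at 20 weeks. The 20-week fall was lost without normal library 2 (-0.67, adjusted p = 0.0807), without 20-week library 3 (-0.80, 0.0969) and in a fit of the 6 libraries alone (0.0505). In treated against normal skin it was -0.70 (95% interval -1.37 to -0.021, adjusted p = 0.124).

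**Figure D2:**
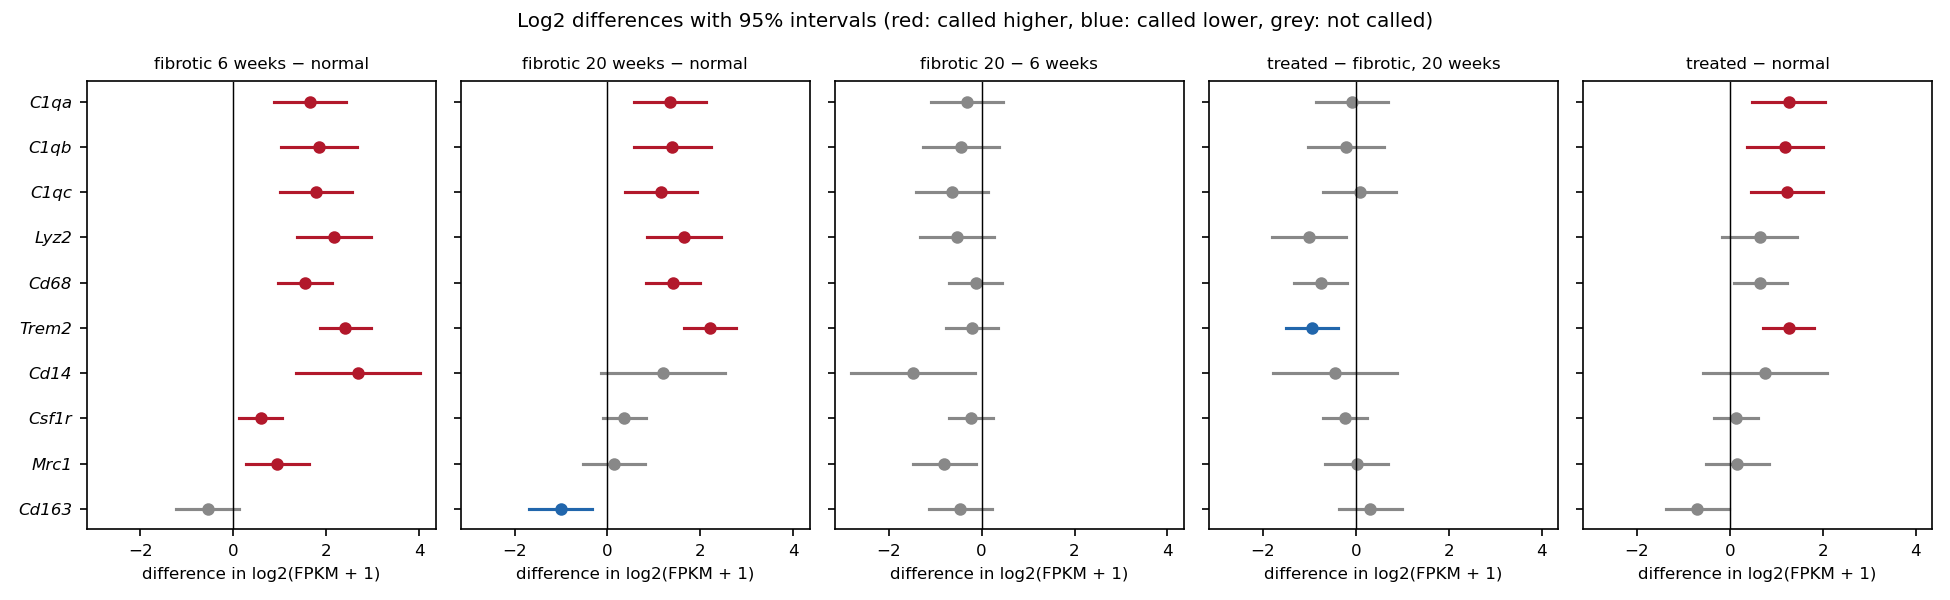
Difference in log2(FPKM + 1) of the 10 genes in 5 comparisons, each point the fitted difference and each line its 95% interval. Red marks genes called higher and blue genes called lower at an adjusted p under 0.05. Cd163 is the only gene with a negative difference in both comparisons of fibrotic with normal skin, and the C1q genes lie near 0 in treated against fibrotic skin.

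Ratios of 2 genes within a library do not depend on how that library was scaled. They are given here as a description, since they were chosen after the levels were seen and since 3 against 3 libraries cannot give an exact permutation p below 0.10. Cd163 was 52.1% to 76.7% of the Mrc1 level in normal skin, 16.7% to 20.8% at 6 weeks, 16.1% to 26.9% at 20 weeks and 26.7% to 38.3% in treated skin. Normal skin did not overlap any other group in this ratio. Against 100 FPKM of C1q, Cd163 stood at 9.91 to 13.1 in normal skin and at 1.19 to 2.69 in the other 9 libraries. Mrc1 stood at 15.6 to 19.0 and at 7.03 to 11.5, and Csf1r at 44.6 to 57.3 and at 13.4 to 38.3, likewise without overlap. C1q was thus higher in the fibrotic and treated libraries relative to each of these 3 receptors.

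Trem2, in contrast, was higher relative to Csf1r outside normal skin. It was 2.73% to 5.92% of the Csf1r level in normal skin, 19.9% to 38.4% at 6 weeks, 19.8% to 40.1% at 20 weeks and 11.9% to 19.0% in treated skin. The treated libraries lay between the normal and the fibrotic ones, without overlap. Relative to 100 FPKM of C1q, Trem2 stood at 1.22 to 2.83 in normal skin and 5.14 to 6.98 at 6 weeks. In this ratio 20-week skin ran from 4.54 to 9.42 and treated skin from 2.46 to 5.07. The treated range there overlapped both the normal and the 20-week range. Lyz2 stood at 167 to 201 FPKM per 100 FPKM of C1q in normal skin, 227 to 242 at 6 weeks, 201 to 258 at 20 weeks and 99.4 to 156 in treated skin. The treated libraries were below all other 9 in this ratio.

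**Figure D3:**
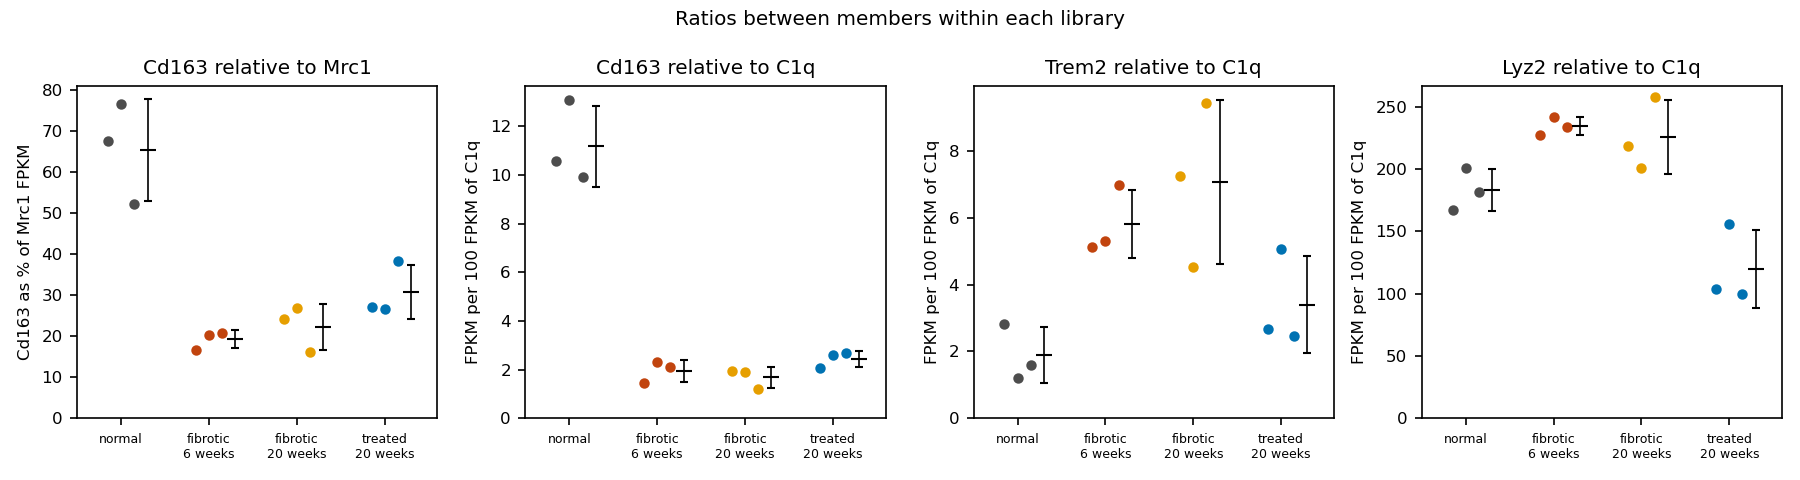
Ratios within each library (linear y axes from 0): Cd163 as a percentage of Mrc1, and Cd163, Trem2 and Lyz2 in FPKM per 100 FPKM of the 3 C1q genes. Points are libraries and bars the mean ± SD (n = 3). Cd163 is lower in all fibrotic and treated libraries than in the normal ones (at most 2.69 against at least 9.91 per 100 FPKM of C1q), and Lyz2 is lowest in the treated ones.

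Between 6 and 20 weeks of fibrosis none of the 10 genes passed the test, where 0.0363% of all tested genes (5 genes, limma) did. All 10 differences were negative, from -1.48 for Cd14 to -0.13 for Cd68. The unadjusted p was under 0.05 for Cd14 (0.033, adjusted p = 0.212) and Mrc1 (0.0238, adjusted p = 0.187). Without 6-week library 3 the Cd14 difference was -2.37 with an adjusted p of 0.0117. Without 6-week library 1, the highest of its group in all 10 genes, those of Trem2, Cd68 and C1qa turned to 0.055, 0.046 and 0.095.

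Treated against fibrotic skin of 20 weeks addresses whether the transplanted fibroblasts went with a change in these genes. Trem2, Cd68 and Lyz2 were lower in all 3 treated than in all 3 fibrotic libraries, and of these only Trem2 is called. The other 7 genes overlapped between the groups. The share of all tested genes that separated in this way was not counted, so the 3 genes cannot be set against it. By the test, 10.9% of all tested genes were called lower in treated than in fibrotic skin. The difference was -0.077 (95% interval -0.86 to 0.70, adjusted p = 0.897) for C1qa, -0.21 (95% interval -1.03 to 0.61, adjusted p = 0.72) for C1qb and 0.084 (95% interval -0.69 to 0.86, adjusted p = 0.889) for C1qc. These intervals hold both rises and falls, so the C1q genes are not shown to be alike in both groups. It was -0.23 (95% interval -0.70 to 0.24, adjusted p = 0.472) for Csf1r, 0.023 (95% interval -0.65 to 0.70, adjusted p = 0.97) for Mrc1, 0.31 (95% interval -0.36 to 0.99, adjusted p = 0.494) for Cd163 and -0.44 (95% interval -1.78 to 0.89, adjusted p = 0.631) for Cd14. Against normal skin, the treated libraries had log2 differences of 1.27 ± 0.35 (SE, adjusted p = 0.0311) for C1qa, 1.19 ± 0.37 (SE, adjusted p = 0.0461) for C1qb and 1.23 ± 0.35 (SE, adjusted p = 0.0341) for C1qc. These calls were lost without normal library 1 or 3 or treated library 1 or 3 (adjusted p from 0.0629 to 0.136), and that of C1qb also without treated library 2 (0.0554). Besides Cd163, 5 genes were not called between treated and normal skin. Cd68 was at 0.66 (95% interval 0.083 to 1.24, adjusted p = 0.0935), Lyz2 at 0.64 (95% interval -0.16 to 1.44, adjusted p = 0.222), Cd14 at 0.75 (95% interval -0.58 to 2.09, adjusted p = 0.389), Csf1r at 0.14 (95% interval -0.33 to 0.60, adjusted p = 0.668) and Mrc1 at 0.16 (95% interval -0.51 to 0.84, adjusted p = 0.72). Calls between treated and fibrotic skin depended on single libraries across the whole table. With all libraries 612 genes were called higher and 1496 lower, and without 20-week library 3 the counts were 2 and 1. They were 69 and 272 without 20-week library 1, and 188 and 771 without 20-week library 2. Without treated library 2 they were 198 and 334, and without treated library 3 they were 51 and 246. A fit of the 6 libraries alone called 1 higher and 2 lower, and leaving out treated library 1 gave 2438 higher and 2778 lower.

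Outside C1q, the complement genes were called less uniformly. None of the 7 tested genes for the C1 proteases and their substrates C2, C3 and C4 was called in fibrotic skin at either time. After rescaling 2 of them fell at 6 weeks and 1 at 20 weeks. C1ra, a C1r protease, stood at 10.3, 12.5 and 11.4 FPKM in normal skin and 20.3, 17.5 and 11.7 at 6 weeks, a log2 difference of 0.47 (95% interval -0.21 to 1.15, adjusted p = 0.24). C1s, the second protease, stood at 20.5, 28.1 and 21.8 and 42.6, 43.8 and 38.4 FPKM, with no overlap of the groups and a difference of 0.81 (95% interval -0.13 to 1.75, adjusted p = 0.149). Both intervals hold rises as well as 0, so the proteases are not shown to stay level. In treated skin C1s stood at 91.6, 29.1 and 21.6 FPKM, library 1 far above the other two. Of 7 tested complement inhibitors 1 rose and 1 fell at each time, and after rescaling 4 fell at 6 weeks and 3 at 20 weeks. After that rescaling 5989 of all 13761 tested genes fell at 6 weeks and 5432 at 20 weeks. Without it 17.6% rose and 21.7% fell at 6 weeks, and 15.3% and 18.2% at 20 weeks. The inhibitor counts are not far from these shares. Cd55, which breaks up the convertases on cell surfaces, fell from 36.8 ± 14.5 FPKM to 7.18 ± 1.23 FPKM (SD, n = 3 each), a log2 difference of -2.15 ± 0.32 (SE, adjusted p = 0.00102), and at 20 weeks -1.93 (adjusted p = 0.0023). Clu, encoding clusterin, a chaperone that also holds back the terminal complex, rose by 0.92 and 1.81 (adjusted p = 0.00912 and 0.00064).

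Of 9 tested genes of the lectin, alternative and terminal pathways, 2 rose and 2 fell at 6 weeks, and 1 rose and 3 fell after rescaling. Over all 13761 tested genes 17.6% rose and 21.7% fell, and after rescaling 1265 genes rose and 5989 fell. The counts of this list are not far from those shares. Cfp, encoding properdin, which stabilises the alternative convertase and is made by myeloid cells, rose by 1.24 (adjusted p = 0.00721). C9 and Masp2 fell by 1.10 and 0.62, both at low levels. Of 10 tested receptors for complement fragments and C1q, 7 rose at 6 weeks and 3 at 20 weeks, beside 17.6% and 15.3% of all tested genes. C3ar1, the receptor for the C3a fragment, rose by 1.99 at 6 weeks (adjusted p = 0.00299), and Itgb2, the shared chain of the complement receptors CR3 and CR4, by 1.67 (adjusted p = 0.00812). With 1 library left out, between 4 and 7 receptors were called at 6 weeks and between 0 and 3 at 20 weeks, with 0 without normal library 1, normal library 3 or 20-week library 1. None of these receptors, and none of the proteases and substrates, was called between treated and fibrotic skin. After rescaling 3 of the 7 proteases and substrates were called higher there, where 2330 of all 13761 tested genes were. With 1 library left out up to 4 receptors were called lower.

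**Figure D4:**
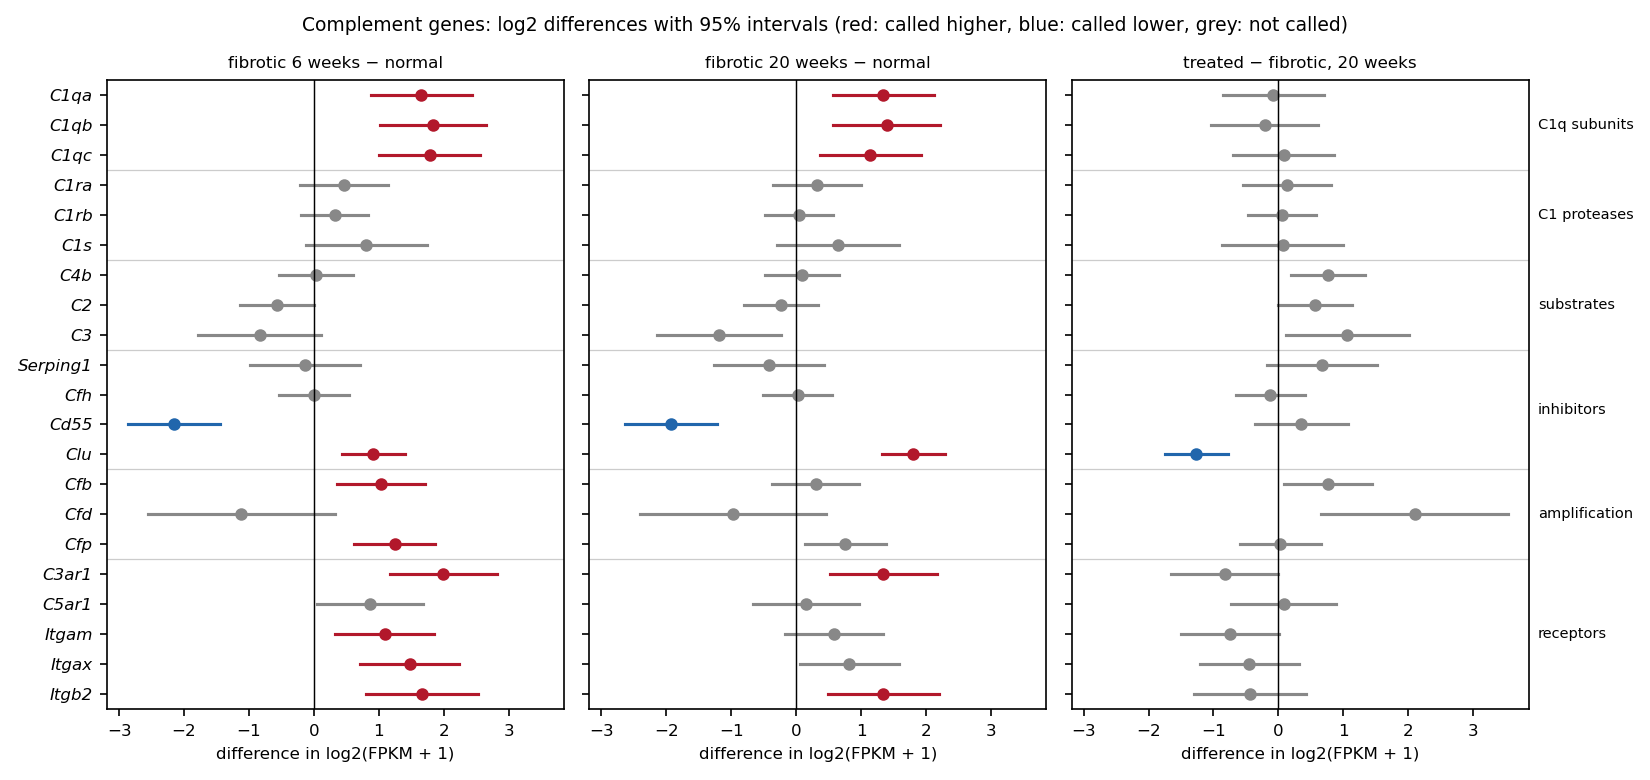
Difference in log2(FPKM + 1) with its 95% interval for the C1q genes and genes of the complement system by role, in 3 comparisons. Red marks genes called higher, blue genes called lower. The C1q subunits are called higher in fibrotic skin at both times, and C1ra, C1rb, C1s, C4b, C2 and C3 are not called in any of the 3.

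The partners of the receptors differed from one another. For CSF1R, the ligand gene Il34, made by keratinocytes in skin, fell from 57.5 ± 7.16 FPKM to 9.56 ± 1.06 FPKM at 6 weeks and 20.7 ± 10.2 FPKM at 20 weeks (SD, n = 3 each), log2 differences of -2.47 ± 0.37 (SE, adjusted p = 0.00109) and -1.56 ± 0.37 (SE, adjusted p = 0.0109). Both falls held in all 14 alternatives. The other ligand gene, Csf1, stood at 13.1, 15 and 12.9 FPKM in normal skin and 13.4, 13.8 and 13.6 at 6 weeks, a difference of -0.0043 (95% interval -0.42 to 0.41, adjusted p = 0.988). Of the 8 tested genes in the list of ligands and myeloid growth factor receptors, 4 rose and 2 fell at 6 weeks. Over all tested genes 17.6% rose and 21.7% fell, and the count that fell is not far from that share. Of the 8 genes, 2 rose after rescaling or without normal library 1 or 3 or 6-week library 2. Those that rose include Csf3r, the G-CSF receptor of neutrophils and monocytes (1.83, adjusted p = 0.0082).

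For TREM2, the adaptor gene Tyrobp rose from 40.9 ± 10.6 FPKM to 111 ± 35.3 FPKM at 6 weeks (SD, n = 3 each), a log2 difference of 1.40 ± 0.27 (SE, adjusted p = 0.00357), and at 20 weeks differed by 0.68 (95% interval 0.077 to 1.28, adjusted p = 0.0771). Of the 8 tested genes of TREM2 signalling, 4 rose at 6 weeks, Tyrobp and the kinase gene Lyn (1.03, adjusted p = 0.00177) among them, and none at 20 weeks. Trem2 itself was called at both times. For CD14, Tlr4 stood at 1.46, 2.13 and 1.61 FPKM in normal skin and 3.24, 3.13 and 1.20 at 6 weeks, a difference of 0.31 (95% interval -0.19 to 0.82, adjusted p = 0.297). Ly96, which encodes the endotoxin-binding partner MD-2, rose by 0.79 at 6 weeks (adjusted p = 0.0234) and lost the call without normal library 1 or 2 or 6-week library 1 or 2. Of 14 tested genes of endotoxin sensing 7 rose at 6 weeks, but 1 did after rescaling, without normal library 1 or without 6-week library 2. Of 10 genes of haemoglobin uptake and haem breakdown, 3 rose at 6 weeks, beside 17.6% of all tested genes. At 20 weeks 1 rose and 1 fell, beside 15.3% and 18.2%. The 6-week count was 1 with the replicate block and after rescaling, and 1 to 2 with any library left out. The 20-week fall was lost without normal library 1 or 3 or 20-week library 1 or 3. Among them the haem-degrading enzyme gene Hmox1 stood at 43.5, 55.1 and 50.2 FPKM in normal skin, 119.9, 170.1 and 84.3 at 6 weeks, 109, 115 and 99.2 at 20 weeks and 63.8, 39.9 and 31.0 in treated skin. It rose by 1.26 and 1.11 in fibrotic skin (adjusted p = 0.00637 and 0.0133). Cd163 differed by -0.55 at 6 weeks, which is not called (adjusted p = 0.174), and was called lower at 20 weeks (-1.01, adjusted p = 0.0289). That 20-week call was lost in some alternatives, as given above.

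Of 29 tested further genes of macrophages and monocytes, 21 rose and 1 fell at 6 weeks, with a median log2 difference of 1.48. Over all tested genes 17.6% rose and 21.7% fell then, with a median of -0.051. The number of the 29 that rose was 17 to 22 with a library left out and 19 after rescaling. At 20 weeks 10 rose and 1 fell, with a median of 0.68, beside 15.3% of all tested genes that rose and 18.2% that fell. The number of the 29 that rose then lay between 3 (without normal library 1) and 7 when a library was left out, and was 8 after rescaling. Ms4a7, a membrane protein gene of macrophages, rose by 2.51 at 6 weeks (adjusted p = 0.00307). Emr1, which encodes the macrophage marker F4/80, did not pass the test at 6 weeks, at 0.40 (95% interval -0.30 to 1.10, adjusted p = 0.329), or at 20 weeks, at -0.14 (95% interval -0.84 to 0.56, adjusted p = 0.756). It was named after its values were seen.

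The lysosome list, genes for membrane proteins and hydrolases of that organelle, had 10 of 15 tested genes higher at 6 weeks and 9 at 20 weeks. Over all tested genes 17.6% were higher and 21.7% lower at 6 weeks, and 15.3% and 18.2% at 20 weeks. After rescaling the lysosome counts were 6 and 2, where 1265 and 1086 of all 13761 tested genes were higher. Atp6v0d2, a proton pump subunit, rose by 2.15 and 1.91 (adjusted p = 0.000899 and 0.00215). In treated against fibrotic skin 6 of the 15 fell, 3 after rescaling and 0 without 20-week library 3, with Atp6v0d2 at -1.35 (adjusted p = 0.0229). Of all tested genes 10.9% fell in that comparison, and after rescaling 703 of 13761 did. Among 12 tested mannose receptor relatives and scavenger receptors, 5 rose and 1 fell at 6 weeks, and 4 rose and 3 fell at 20 weeks. After rescaling 3 fell at 6 weeks, where 5989 of all 13761 tested genes did. At 20 weeks 2 rose without normal library 1 or 3, and 1 fell without normal library 1 or 2 or 20-week library 1 or 3. The C-type lectins Clec4n and Clec7a (Dectin-1) rose by 3.80 and 3.74 at 6 weeks (adjusted p = 0.000106 and 0.00307). Stab1, a scavenger receptor of macrophages and endothelium, rose by 2.64 at 20 weeks and had a log2 difference of -1.06 between treated and fibrotic skin (adjusted p = 0.000253 and 0.0193).

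Genes of inflammatory macrophages rose in 6 of 12 tested cases at 6 weeks, beside 17.6% of all tested genes that rose and 21.7% that fell. They rose in 4 at 20 weeks, beside 15.3% and 18.2%, and none fell at either time. With a library left out 4 to 7 rose at 6 weeks, 4 without 6-week library 1 or 2, and 1 to 3 at 20 weeks, 1 without 20-week library 1. Il1b, the gene for interleukin-1β, rose by 4.01, and Ccl2, the monocyte chemokine gene, by 2.79 at 6 weeks (adjusted p = 0.00627 and 0.0115). Of 12 tested genes of alternatively activated macrophages 3 rose and 2 fell at 6 weeks, and 2 rose and 1 fell at 20 weeks, shares near those over all tested genes. The 2 falls at 6 weeks were lost without normal library 1 or 3 or 6-week library 2, and at 20 weeks 0 to 1 rose with any library left out. In treated against fibrotic skin Arg1, encoding arginase 1, which epidermis also makes, differed by -1.95, and Tgm2, a transglutaminase gene, by 1.0 (adjusted p = 0.0154 and 0.0323). Of the other list genes named by rule for this comparison, Hmox1 differed by -1.31, the iron exporter gene Slc40a1 by -0.78, Clu by -1.27 and Traf6, a signalling adaptor gene, by -1.30 (adjusted p = 0.0197, 0.0392, 0.0154 and 0.0155). None of the 10 list genes chosen by rule for treated against fibrotic skin, Atp6v0d2, Stab1, Arg1 and Tgm2 included, kept its call in every alternative. Some genes stand in more than one of these lists.

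Markers of other cells were read beside the 10 genes. Of 6 pan-leukocyte genes 5 rose at 6 weeks, 3 after rescaling and 2 without normal library 1 or 6-week library 2. At 20 weeks 2 rose, and 0 without normal library 1 or 3 or 20-week library 3. Their summed FPKM was 58.1 to 79.1 in normal skin, 111 to 158 at 6 weeks, 87.9 to 104 at 20 weeks and 69.2 to 124 in treated skin. Of the 10 genes of the neutrophil list 3 were tested, and all 3 rose at 6 weeks. The summed FPKM of the 10 was 2.47 to 4.07 in normal skin, 15.9 to 41.2 at 6 weeks, 15.9 to 52.6 at 20 weeks and 4.56 to 21.3 in treated skin. Cxcr2, a chemokine receptor gene that keratinocytes also express, gave up to 22.0 FPKM of it, and Ltf 26.0 FPKM in 20-week library 1. The granule genes Mpo, Elane and Ngp did not exceed 1.49 FPKM in any of the 12 libraries. Csf3r and Stfa2l1 were high in 6-week libraries 1 and 2 (7.25, 5.98 and 1.01 and 8.16, 16.5 and 1.79 FPKM). Those libraries were also the highest of all 12 for Cd14, Lyz2, Cd68, Mrc1, C1qa, C1qb and C1qc, so this order is not particular to Cd14 and Lyz2. Of 5 tested classical monocyte genes 1 rose at 6 weeks and 1 fell at 20 weeks, with sums of 134 to 203, 98.5 to 205, 101 to 113 and 128 to 222 FPKM over the list in the same order of groups. Of 7 tested dendritic and Langerhans cell genes 2 rose at 6 weeks and 1 fell at 20 weeks. Of 7 tested T cell genes 1 rose and 2 fell at 6 weeks and 2 rose at 20 weeks, and none of 5 mast cell genes was called. Over all tested genes 17.6% rose and 21.7% fell at 6 weeks, and 15.3% rose and 18.2% fell at 20 weeks. The counts for monocyte, dendritic and T cell genes are not far from those shares. The part of these cells in the levels of the 10 genes was not tested.

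The genes whose pattern was nearest to the C1q genes were found by the root mean square distance between centred log2 profiles over the 12 libraries, among 9658 genes with a mean of at least 5 FPKM. They were Tubb2a (0.27), Cyth4 (0.28), Pld4 (0.29), Lurap1l (0.29) and Mmp19 (0.31), where the median gene stood at 0.81. Of the other members above that mean, Cd68 came 17th, Lyz2 64th, Mrc1 133rd, Csf1r 760th and Cd14 1679th. Nearest to Trem2 were Hsd17b2 (0.33), Fblim1 (0.33), Stab1 (0.35), Col12a1 (0.37) and Ppif (0.38), against a median of 1.01. Among the 10 genes the C1q pairs were closest, at 0.15, 0.18 and 0.19, followed by Cd68 and Lyz2 at 0.33. Trem2 and Cd163 were the farthest pair, at 1.33. The libraries share tissue composition and scaling, so these distances are a description, and no test was made.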

How the data were processed

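RNA of skin was sequenced after poly-A selection with a stranded kit, per the labels' protocols. The authors deposited FPKM values per gene. Per the submitters' processing notes, the tools were Cufflinks 2.2.1, TopHat2 2.0.13 with Bowtie2 2.2.3, cutadapt 1.7.1, SAMtools 1.0 and FastQC 0.11.2, and the build was mm10. Their parameters were not stated there. FPKM keeps no usable depth, so no counting interval is given, and it moves with the RNA of abundant tissues.

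From these values log2(FPKM + 1) was fitted in limma 3.58.1 (R 4.3.3) with an intensity trend, all 12 libraries sharing 1 estimate of the spread. A gene entered if 3 or more libraries had 1 FPKM or more (13761 of 23359). Tests were 2-sided and Benjamini-Hochberg adjusted within each of 5 comparisons. A run on simulated data, with noise drawn separately for each gene, checked the code of the fit only. It held no differences in tissue make-up shared by the genes of a library. Alternatives were a pseudocount of 0.1, no filter, a filter at a mean of 5 FPKM, median-of-ratios scaling, the rescaling without muscle, hair shaft and cornified genes, no trend, the 6 compared libraries alone, the replicate number as a block, and each library left out. The totals of that rescaling also left out 794 short RNA genes, and genes that were absent in some libraries but high wherever present.

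The 10 genes and all gene lists were chosen with earlier results of these data known. From each list the rule names up to 2 called genes with the largest difference in each direction, plus fixed partners of the 10 genes. For fibrotic against normal skin the text gives those that kept their call in every alternative, 22 of 32 at 6 weeks and 12 of 25 at 20 weeks, or some of them; for treated against fibrotic skin it gives 8 of 10. Some genes the rule names are not reported here. Same-numbered libraries deviated together between normal and 6-week skin (correlations 0.159, 0.227 and 0.108), and in no other comparison for all 3 numbers. The block was fitted in every comparison and counts among the alternatives of each. Only between normal and 6-week skin do the correlations give it a ground. Older symbols were matched by hand. Promoters are RefSeq's, build GRCm38.p6.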

Additional observations from a re-analysis of the deposited data

How the results depend on the processing

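The 6-week rises of Trem2, Cd14, Cd68, Lyz2, C1qa, C1qb and C1qc and the 20-week rises of Trem2, Cd68 and Lyz2 kept their direction and their call under each alternative in which they were tested. Of the 10 genes, 9 were called at 6 weeks, and between 7 and 9 with 1 library left out. At 20 weeks 7 were called, and between 4 and 6 with 1 library left out, 4 without normal library 1 or 3. Between 6 and 20 weeks the count was 0, and 0 to 1 with a library left out. For treated against fibrotic skin it was 1, and 0 to 2 with a library left out; it was 0 without the filter, with the filter at a mean of 5 FPKM (where Trem2 was not tested), after rescaling, and with the 6 libraries alone. For treated against normal skin it was 4, 2 without the filter, 1 with the 6 libraries alone, and 1 to 5 with a library left out. With the replicate block the counts were 8 at 6 weeks, where Csf1r lost its call, and 3 for treated against normal skin, where the libraries share only a number.

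Signs turned only in differences that were not called. After rescaling these were Mrc1 (-0.15) and Tlr4 (-0.015) at 20 weeks against normal skin and, for treated against fibrotic skin, Csf1r (0.057), C1qa (0.21), C1qb (0.077), Csf1 (0.025) and Tlr4 (0.18). Csf1 at 6 weeks turned to 0.044 with median-of-ratios scaling, and ran from -0.041 to 0.058 with a library left out. With a library left out, Mrc1 at 20 weeks against normal skin ran from -0.055 to 0.40. Between 6 and 20 weeks Trem2 ran from -0.43 to 0.055, Cd68 from -0.38 to 0.046 and C1qa from -0.68 to 0.095. For treated against fibrotic skin Mrc1 ran from -0.095 to 0.13, C1qa from -0.21 to 0.11, C1qc from -0.033 to 0.21, Tlr4 from -0.11 to 0.043, C1ra from -0.19 to 0.30 and C1s from -0.55 to 0.47. For treated against normal skin Mrc1 ran from -0.032 to 0.42 and Csf1r from -0.042 to 0.34. The cause was not tested. Read depth is unknown, and 3 libraries a group limit the precision.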
